A study of Homo sapiens with 10 samples.

Results

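Genes for splicing factors and RNA-binding helicases were followed through breast cancer cells sorted by the activity of an Oct4 reporter. Members were all probe sets of the deposited table whose single gene symbol in the platform annotation began with SRSF, HNRNP, SF3, RBM, DDX, DHX, PRPF, SNRP or CPSF. The rule took 187 of the 25750 probe sets, which covered 95 of the 12082 genes with a probe set of their own, and left out 12 probe sets whose annotation joined several symbols. The prefixes also took in genes that share a name and not a role, such as ribosome biogenesis helicases, and 15 member probe sets of 10 genes stood on no role list. Every probe set was kept, bright or dim. On 43 genes there was 1 probe set and on 52 genes there were 2 or more. A probe set was called bright where it lay at or above the median of its own array on at least 2 of the 10 arrays, which 143 members did and 44 did not.

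The spliceosome removes introns from pre-mRNA. Small nuclear ribonucleoproteins, built on Sm and other SNRP proteins, recognize the splice sites, and the SF3 complex anchors one of them at the branch site. PRPF proteins assemble and remodel the machine. SR proteins mostly favour the use of an exon they bind, hnRNP proteins often disfavour it, and many RBM proteins tune single exons. CPSF proteins cut and polyadenylate the transcript, and DEAD-box (DDX) and DEAH-box (DHX) helicases unwind RNA or strip proteins from it in splicing, export, translation, decay and ribosome assembly. Many SR and hnRNP genes regulate their own mRNA through alternative exons and retained introns, so that probe sets of one gene can read different transcripts.

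Total RNA was profiled by Affymetrix U133 Plus 2.0 arrays, and values were log2 units after robust multi-array averaging (RMA). All cells were MDA-MB-231, a human basal-like breast cancer line, carrying the pEGFP1-Oct3/4 plasmid, in which the Oct4 promoter drives GFP, and selected with neomycin. Oct4hi cells were the 5% with the brightest GFP (4 arrays), Oct4med cells lay between the extremes (2 arrays, since reagents ran short), and Oct4low cells were the 5% with the dimmest GFP (4 arrays) in the labels and methods, while the paper elsewhere gives Oct4low a wider gate. The design was thus 1 transfected line, with no untransfected cells among these arrays. The labels name the replicates of a subset biological, and the study's methods give RNA from separate experiments. In such arrays fewer cells of a type cannot be told apart from less RNA per cell. Of 12 markers fixed for this line, 9 had a probe set and 7 lay at or above the array median on all 10 arrays. VIM, on its 1 probe set, lay below it on all 10, and MSN reached it on 1. Of 5 measured leukocyte markers, PTPRC and LYZ lay below it on all 10 arrays. CD3E and ITGAM lay at or above it on all 10, and CD14 on 8. On all 10 arrays 6 of 10 measured luminal, 3 of 5 stromal and 1 of 2 erythroid markers also lay at or above it. Any 2 arrays of a subset differed by a median of at least 0.12 log2 units over all probe sets, so no array was a copy of another. Replicate SDs of the members had medians of 0.134 in Oct4hi, 0.135 in Oct4med and 0.136 in Oct4low cells.

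Oct4hi cells differed from Oct4low cells in both directions. By limma, with Benjamini-Hochberg adjustment over all 25727 non-control probe sets and a threshold of 0.05, 23 member probe sets of 16 genes were higher in Oct4hi cells, which was 12.3% of members against 8.70% of all probe sets. In the other direction 19 member probe sets of 17 genes were lower, 10.2% of members against 8.80% of all. Among bright probe sets the shares were 16.1% of members against 14.9% of all for higher values and 9.79% against 14.0% for lower values, so the counts lay near the background of the table. The median change of the members was -0.01, and that of all probe sets was -0.01. None of the 42 changes reached 2-fold, and their sizes ran from 0.24 to 0.95 log2 units for rises and from 0.31 to 0.70 for falls.

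Oct4med cells differed from Oct4low cells mostly in one direction. In Oct4med cells 29 member probe sets of 21 genes were lower, 15.5% of members against 7.36% of all probe sets, and 4 of 3 genes were higher, 2.14% against 1.80%. Over bright probe sets 18.9% of members and 11.9% of all were lower. The members had a median change of -0.07 and all probe sets one of 0.04. Of the falls, 5 were over 2-fold. All 29 had both Oct4med arrays below every Oct4low array, which 59 members did in all, 31.6% of members against 17.3% of all probe sets.

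Between the outer and the middle subset, 31 member probe sets of 19 genes were higher in Oct4hi than in Oct4med cells (16.6% of members, 7.52% of all probe sets), and 4 of 4 genes were lower (2.14% of members, 3.22% of all). Both of these comparisons rested on the 2 Oct4med arrays. Without Oct4med replicate 1, calls fell to 13 lower and 5 higher for Oct4med against Oct4low, and to 4 higher and 1 lower for Oct4hi against Oct4med. After a second quantile normalization of the arrays, 27 were lower (14.4% of members, 7.01% of all probe sets) and 10 higher (5.35%, 3.86%) for Oct4med against Oct4low. For Oct4hi against Oct4med, 18 were higher (9.63% of members, 5.86% of all) and 7 lower (3.74%, 4.90%). Lower calls thus made up less of the first set and higher calls less of the second. The control probe set for the 5′ end of 28S ribosomal RNA read 13.54 to 13.60 on the Oct4hi arrays, 12.64 and 12.77 on the Oct4med arrays and 13.53 to 13.70 on the Oct4low arrays. The probe set for the middle of 18S ribosomal RNA read 13.04 to 13.34 in Oct4hi, 12.80 and 13.15 in Oct4med and 12.77 to 12.96 in Oct4low cells, so that Oct4hi and Oct4low arrays did not overlap. The part of these controls in the results was not tested.

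**Figure D1:**
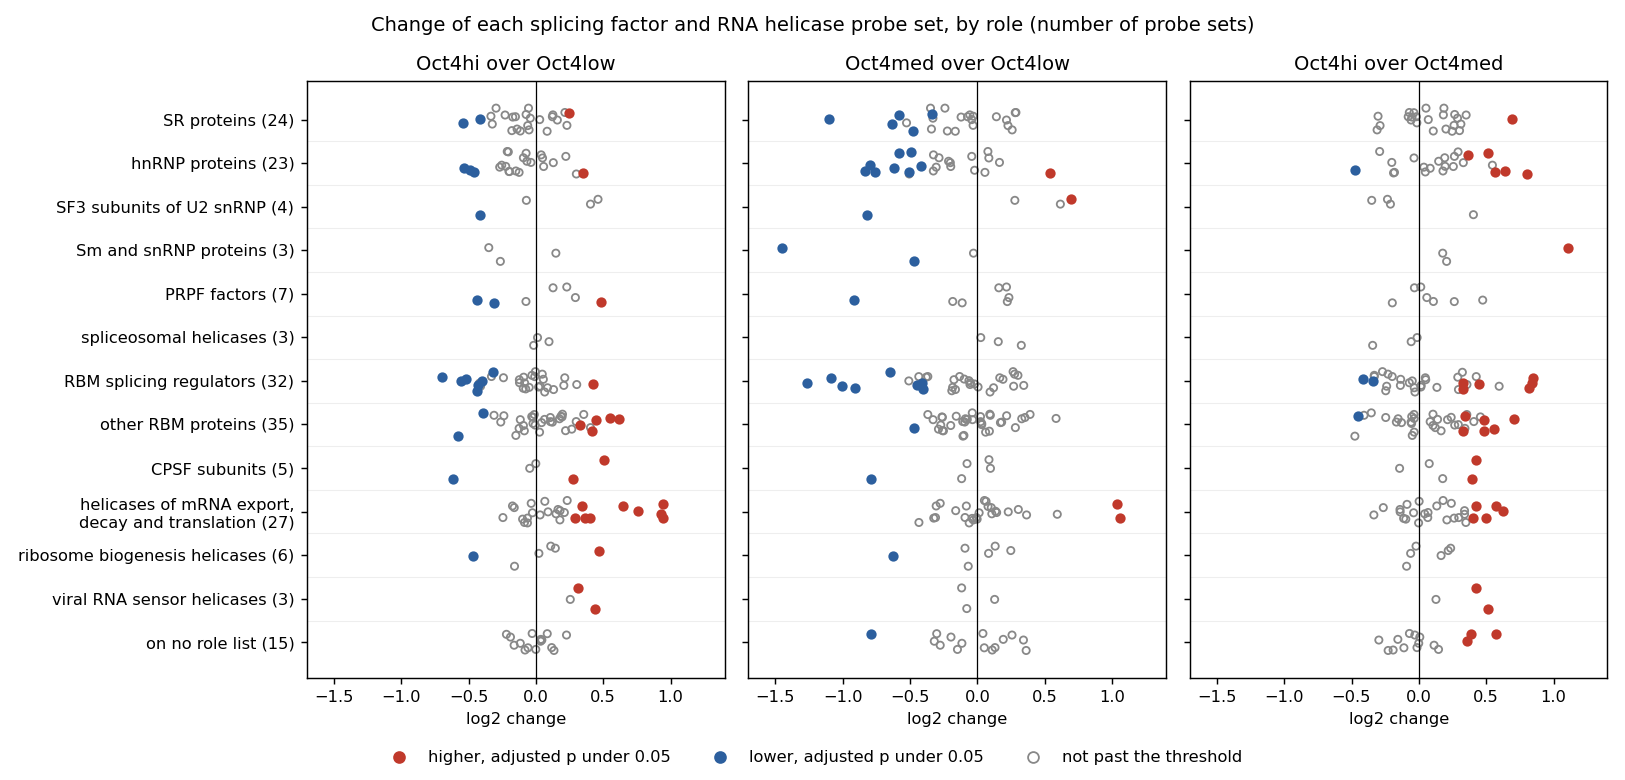
Log2 change of each of the 187 member probe sets (x axis) in 3 comparisons, grouped by role (rows, with the number of probe sets), filled red where higher and blue where lower past an adjusted p of 0.05, and open otherwise. In Oct4med over Oct4low, 29 of 33 filled points lie left of 0. In Oct4hi over Oct4low, 9 of the 27 points for helicases of mRNA export, decay and translation are filled, all right of 0. Over all probe sets 8.70% were higher in that comparison.

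Core spliceosome members gave the largest change of all. SNRPA1 and SNRPB2 encode proteins of the U2 particle, which binds the branch site. The SNRPA1 probe set 242146_at read 7.41, 7.18, 7.31 and 7.83 on the Oct4hi arrays, 6.12 and 6.54 on the Oct4med arrays, and 7.60, 8.07, 7.74 and 7.72 on the Oct4low arrays. Both Oct4med arrays lay below all 8 others, while Oct4hi and Oct4low arrays overlapped. It was 2.74-fold lower in Oct4med than in Oct4low cells (log2 change -1.45, SE 0.17, adjusted p = 4.25e-05) and 2.15-fold higher in Oct4hi than in Oct4med cells (log2 change 1.10, SE 0.17, adjusted p = 0.00064). The 1 probe set of SNRPB2, which was dim, was also lower in Oct4med than in Oct4low cells (-0.47, SE 0.13, adjusted p = 0.0283), and that of SNRPE, an Sm protein, changed by -0.03 (adjusted p = 0.91).

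The SF3 subunits moved apart. SF3B6, the subunit that touches the branch-point adenosine, read 5.93, 5.72, 5.54 and 5.99 in Oct4hi, 5.20 and 5.58 in Oct4med, and 6.11, 6.35, 6.08 and 6.31 in Oct4low cells. It was lower than in Oct4low cells both in Oct4hi (-0.42, SE 0.12, adjusted p = 0.0219) and in Oct4med cells (-0.82, SE 0.14, adjusted p = 0.00139). SF3B1, the large subunit that is often mutated in leukaemia, ran the other way on probe set 214305_s_at, which was 1.62-fold higher in Oct4med than in Oct4low cells (log2 change 0.69, SE 0.19, adjusted p = 0.0307) and changed by 0.46 in Oct4hi cells (adjusted p = 0.0521).

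Among PRPF factors, 1 of 7 probe sets was higher and 2 were lower in Oct4hi than in Oct4low cells. The shares over all probe sets were 8.70% and 8.80%. PRPF6, which bridges the particles of the tri-snRNP, read 9.73, 9.40, 9.34 and 9.72 in Oct4hi, 9.09 and 9.48 in Oct4med, and 9.12, 9.09, 8.90 and 9.14 in Oct4low cells (Oct4hi against Oct4low 0.48, SE 0.12, adjusted p = 0.00856). PRPF38B was lower in Oct4med than in Oct4low cells (-0.91, SE 0.15, adjusted p = 0.000993), with 7.60 and 7.98 in Oct4med against 8.44 to 8.92 in Oct4low cells. PRPF31, a tri-snRNP factor whose loss causes retinal disease, changed by 0.29 in Oct4hi cells (adjusted p = 0.0629). The spliceosomal helicase probe sets, 3 in all for DHX8 and DHX35, passed the threshold in no comparison.

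SR proteins were lower in Oct4med than in Oct4low cells on 5 of 24 probe sets, from SRSF1, SRSF4 and SRSF5, and higher on none. Over all probe sets 7.36% were lower and 1.80% higher in that comparison. SRSF4 on 242837_at read 7.41, 7.23, 7.27 and 7.74 in Oct4hi, 6.49 and 6.96 in Oct4med, and 7.63, 8.03, 7.99 and 7.66 in Oct4low cells. The Oct4med arrays lay below all others, with a 2.15-fold lower mean than in Oct4low cells (log2 change -1.10, SE 0.17, adjusted p = 0.000353). Its second probe set fell by 0.48 (SE 0.13, adjusted p = 0.0325). SRSF1, the founding member of the family, had 2 of 5 probe sets lower in Oct4med cells, 226419_s_at by 0.64 (SE 0.14, adjusted p = 0.00853) and 229246_at by 0.58 (SE 0.14, adjusted p = 0.0128).

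In Oct4hi cells the SR family gave 1 higher and 2 lower of 24 probe sets against Oct4low cells. Over all probe sets 8.70% were higher and 8.80% lower, so these counts did not exceed the background. SRSF7 was higher on 201129_at by 0.24 (SE 0.08, adjusted p = 0.0464), with 10.38 to 10.49 in Oct4hi against 10.13 to 10.27 in Oct4low cells. Its other probe set, 213649_at, which was also bright, changed by -0.14 (difference of changes 0.38, SE 0.11, adjusted p = 0.036). SRSF11 on 213742_at was lower (-0.54, SE 0.15, adjusted p = 0.0193), and its brighter probe set 200685_at changed by -0.33 (adjusted p = 0.0509). SRSF4 on 242837_at was lower by 0.41 (adjusted p = 0.0453) with overlapping arrays.

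The hnRNP proteins were lower in Oct4med than in Oct4low cells on 8 of 23 probe sets from 5 genes and higher on 1. Their median change was -0.31. Over all probe sets 7.36% were lower and 1.80% higher. HNRNPA1, a repressor of exon inclusion that shuttles out of the nucleus, was lower in Oct4med than in Oct4low cells on all 3 of its probe sets, by 0.58 on 214280_x_at, 0.84 on 222040_at and 0.76 on 221919_at (adjusted p = 0.00102, 0.000886 and 0.0042), and higher in Oct4hi than in Oct4med cells on all 3. The probe set 221919_at read 7.51, 7.42, 7.17 and 7.75 in Oct4hi, 6.96 and 6.84 in Oct4med, and 7.40, 7.80, 7.87 and 7.58 in Oct4low cells. HNRNPA1 has many processed pseudogenes, and the probes of a probe set ending in _x_at can match other sequences, so those signals are uncertain. HNRNPM had 2 of 3 probe sets lower in Oct4med cells, by 0.80 on 214918_at (SE 0.18, adjusted p = 0.00945) and 0.50 on 233605_x_at (SE 0.12, adjusted p = 0.0112).

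Some hnRNP genes had a probe set that was lower than in Oct4low cells in both other subsets. HNRNPD, which binds AU-rich elements of unstable mRNAs, read on 213359_at 8.20, 8.11, 8.06 and 8.43 in Oct4hi, 8.13 and 8.10 in Oct4med, and 8.55, 8.90, 8.76 and 8.72 in Oct4low cells. No Oct4hi or Oct4med array reached the lowest Oct4low array (Oct4hi -0.54, SE 0.10, adjusted p = 0.00198, Oct4med -0.62, SE 0.12, adjusted p = 0.00405, each against Oct4low). HNRNPA2B1 on 225107_at was likewise lower by 0.46 in Oct4hi (adjusted p = 0.0084) and 0.51 in Oct4med cells (adjusted p = 0.0249). Its other probe set, 244131_at, which was also bright, changed by -0.04 in Oct4hi and 0.16 in Oct4med cells. The changes of these probe sets differed in both comparisons (-0.42, adjusted p = 0.04998, and -0.67, adjusted p = 0.0197). HNRNPU, a nuclear scaffold protein, was higher by 0.35 in Oct4hi (adjusted p = 0.029) and by 0.54 in Oct4med cells (adjusted p = 0.0132).

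Single hnRNP probe sets set Oct4hi apart from Oct4med cells. HNRNPDL, a close relative of HNRNPD, read on 209068_at 6.80, 6.95, 6.84 and 6.90 in Oct4hi, 7.34 and 7.35 in Oct4med, and 7.43, 7.44, 7.27 and 7.32 in Oct4low cells. All Oct4hi arrays lay below all others (-0.47, SE 0.10, adjusted p = 0.00742 against Oct4med, and -0.49, SE 0.08, adjusted p = 0.000824 against Oct4low). HNRNPH1, which binds runs of G, was 1.75-fold higher on 213472_at in Oct4hi than in Oct4med cells (log2 change 0.81, SE 0.21, adjusted p = 0.0196).

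RBM splicing regulators were lower on 8 of 32 probe sets in Oct4med than in Oct4low cells and higher on none. The shares over all probe sets were 7.36% lower and 1.80% higher. RBM39, a U2AF-like splicing factor and transcriptional coactivator, had all 4 of its probe sets lower. The dimmest, 226404_at, read 6.87, 6.83, 6.79 and 6.98 in Oct4hi, 5.72 and 6.32 in Oct4med, and 6.97, 7.18, 7.21 and 7.07 in Oct4low cells (Oct4med against Oct4low -1.09, SE 0.14, adjusted p = 9.43e-05). On 227223_at the mean was 2.01-fold lower, and on the brighter 208720_s_at and 207941_s_at it was 1.33-fold lower (adjusted p = 0.0076, 0.0139 and 0.0142). All 4 probe sets were bright by the rule used here. Oct4hi and Oct4low arrays overlapped on all 4 probe sets.

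RBM5, a regulator of apoptosis gene splicing, read on 230742_at 5.50, 5.72, 5.22 and 5.85 in Oct4hi, 4.36 and 5.10 in Oct4med, and 5.90, 6.26, 5.86 and 5.95 in Oct4low cells. The order was Oct4med, Oct4hi, Oct4low from low to high with no overlap (Oct4med against Oct4low -1.26, SE 0.19, adjusted p = 0.00037), but Oct4hi against Oct4low did not pass (-0.42, adjusted p = 0.0784). RBM25, which acts on BCL2L1 splicing, was lower in Oct4med cells on 1557081_at (-0.91, SE 0.17, adjusted p = 0.00196), with 7.36 and 7.76 in Oct4med against 8.28 to 8.72 in Oct4low cells. RBM8A, a core protein of the exon junction complex, was lower in Oct4med cells on 1554602_at (-0.65, SE 0.12, adjusted p = 0.00186), while its brighter probe sets 213852_at and 217856_at changed by -0.06 and 0.28. The change on 1554602_at differed from that on the brightest, 213852_at (difference of changes 0.58, SE 0.14, adjusted p = 0.0175).

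In Oct4hi cells 7 of the 32 probe sets of RBM splicing regulators were lower than in Oct4low cells and 1 was higher. Over all probe sets 8.80% were lower and 8.70% higher. RBM47, a cofactor of APOBEC1 RNA editing, read on 218035_s_at 6.63, 6.48, 5.97 and 6.34 in Oct4hi, 6.72 and 6.65 in Oct4med, and 7.04, 7.06, 7.10 and 7.01 in Oct4low cells. The 3 subsets did not overlap, and Oct4hi was 1.62-fold lower than Oct4low, the largest fall of a member in that comparison (log2 change -0.70, SE 0.12, adjusted p = 0.000693). RBM17, a factor of alternative 3′ splice site choice, read on 224780_at 7.28 to 7.36 in Oct4hi, 7.72 and 7.74 in Oct4med, and 7.76 to 7.91 in Oct4low cells (Oct4hi against Oct4low -0.52, SE 0.08, adjusted p = 0.000436). Its brightest probe set, 225751_at, changed by -0.03 and 221309_at by -0.004. The change on 224780_at differed from that on the brightest (difference of changes 0.49, SE 0.11, adjusted p = 0.0144). RBM6, a neighbour and relative of RBM5, was lower on 1556672_a_at (-0.43, adjusted p = 0.0121) and on the dim 228030_at (-0.56, adjusted p = 0.00654).

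The other RBM proteins gave 5 rises and 2 falls on 35 probe sets in Oct4hi against Oct4low cells. The shares over all probe sets were 8.70% for rises and 8.80% for falls. RBM3, a cold-induced RNA-binding protein that supports translation, read on 208319_s_at 11.66, 11.78, 11.63 and 11.52 in Oct4hi, 10.78 and 11.10 in Oct4med, and 11.04, 11.01, 11.20 and 10.88 in Oct4low cells. Every Oct4hi array lay above every other array (against Oct4low 0.62, SE 0.10, adjusted p = 0.000633, and against Oct4med 0.70, SE 0.12, adjusted p = 0.00165). RBMS2, which binds single-stranded nucleic acids, was higher in Oct4hi than in Oct4low cells on all 3 of its probe sets, by 0.33, 0.41 and 0.45 (adjusted p = 0.0239, 0.00203 and 0.00248). For RBM27 and RBM18, the brightest probe sets changed by 0.36 and 0.40 and did not pass (adjusted p = 0.0554 and 0.0593). RBMS3, with 5 probe sets, had 1 that passed, 206767_at, higher in Oct4hi than in Oct4med cells by 0.34 (SE 0.11, adjusted p = 0.0498), a call that was lost without any 1 of 9 arrays, all but Oct4hi replicate 3.

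Genes with the CPSF prefix, a shared name and not 1 complex, moved both ways in Oct4hi against Oct4low cells. CPSF2, a scaffold of the cleavage complex, was higher on both probe sets, by 0.28 on 225994_at (SE 0.09, adjusted p = 0.0363) and 0.51 on 233208_x_at (SE 0.10, adjusted p = 0.00189). CPSF6, which steers the choice of poly(A) site, read on 226934_at 5.64, 5.43, 5.42 and 5.76 in Oct4hi, 5.50 and 5.28 in Oct4med, and 5.97, 6.22, 6.45 and 6.08 in Oct4low cells. It was lower than in Oct4low cells in both subsets (Oct4hi -0.61, SE 0.12, adjusted p = 0.00171, Oct4med -0.79, SE 0.14, adjusted p = 0.00151). CPSF1, the subunit that helps bind the poly(A) signal, changed by -0.05 in Oct4hi cells (adjusted p = 0.861).

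The helicases of mRNA export, decay and translation were higher in Oct4hi than in Oct4low cells on 9 of 27 probe sets from 5 genes. None was lower, and the median change was 0.16 beside -0.01 for all probe sets. Over all probe sets 8.70% were higher, and over bright ones, which 23 of these 27 were, 14.9%. DDX3X gave 4 of the 9 calls and DHX9 gave 2. DHX9, a helicase of double-stranded RNA and of RNA-DNA hybrids, read on 212107_s_at 9.23, 8.40, 8.20 and 8.41 in Oct4hi, 8.48 and 8.87 in Oct4med, and 7.96, 7.75, 7.44 and 7.31 in Oct4low cells. All Oct4hi and Oct4med arrays lay above all Oct4low arrays, and Oct4hi and Oct4med arrays overlapped. The rises were 0.94 in Oct4hi (SE 0.19, adjusted p = 0.00269) and 1.06 in Oct4med cells (SE 0.23, adjusted p = 0.00714). Its second probe set, 212105_s_at, gave 0.95 (SE 0.23, adjusted p = 0.00863) and 1.03 (SE 0.28, adjusted p = 0.0271).

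DDX3X, a helicase that loads mRNAs with structured leaders onto ribosomes, had 6 probe sets, the most of any gene here together with RBM33. Its 4 bright probe sets were all higher in Oct4hi than in Oct4low cells, by 0.34, 0.41, 0.65 and 0.76 (adjusted p = 0.00951, 0.00522, 7.4e-05 and 0.000151), and all higher in Oct4hi than in Oct4med cells, by 0.42, 0.50, 0.57 and 0.62. On 212514_x_at the arrays read 8.61, 8.60, 8.52 and 8.45 in Oct4hi, 7.91 and 8.04 in Oct4med, and 7.95, 7.89, 7.83 and 7.91 in Oct4low cells. Oct4hi arrays overlapped no other array on these 4 probe sets, while Oct4med and Oct4low did not differ past the threshold (adjusted p from 0.55 to 0.67). The 2 dim probe sets changed by -0.06 and -0.09 (adjusted p = 0.806 and 0.718). DDX3X has a near-identical copy, DDX3Y, whose 2 probe sets lay below the array median on all 10 arrays and passed the threshold in no comparison.

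DDX6, a helicase of mRNA storage and decay in P-bodies, was 1.91-fold higher in Oct4hi than in Oct4low cells on 204909_at (log2 change 0.93, SE 0.17, adjusted p = 0.00117). That probe set read 7.27, 6.64, 6.30 and 6.62 in Oct4hi, 6.12 and 6.62 in Oct4med, and 6.01, 5.61, 5.71 and 5.76 in Oct4low cells. DDX20 was counted with the helicases of mRNA export, decay and translation, although it is a part of the SMN complex that assembles snRNPs. It was higher by 0.36 (adjusted p = 0.014). DDX19A, which acts in mRNA export at the nuclear pore and has a close paralogue, was higher by 0.29 (adjusted p = 0.0492). All but DHX9 stayed short of the threshold in Oct4med against Oct4low cells.

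Among the remaining helicases, DDX60, an interferon-induced sensor of viral RNA, was higher in Oct4hi cells than in both others, with 8.38 to 8.47 in Oct4hi, 7.74 and 8.09 in Oct4med, and 7.78 to 8.10 in Oct4low cells (0.43 against Oct4low, SE 0.10, adjusted p = 0.00661, and 0.52 against Oct4med, SE 0.12, adjusted p = 0.0129). Its paralogue DDX60L was higher by 0.31 (adjusted p = 0.0229) and 0.43 (adjusted p = 0.0188). Of the 6 ribosome biogenesis probe sets, DDX24 was higher in Oct4hi than in Oct4low cells (0.47, SE 0.12, adjusted p = 0.0141). DDX52, on a dim probe set with values from 3.39 to 4.15, was lower in Oct4hi (-0.47, adjusted p = 0.00179) and in Oct4med cells (-0.63, adjusted p = 0.001). DDX51 changed by -0.16 in Oct4hi cells (adjusted p = 0.424).

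**Figure D2:**
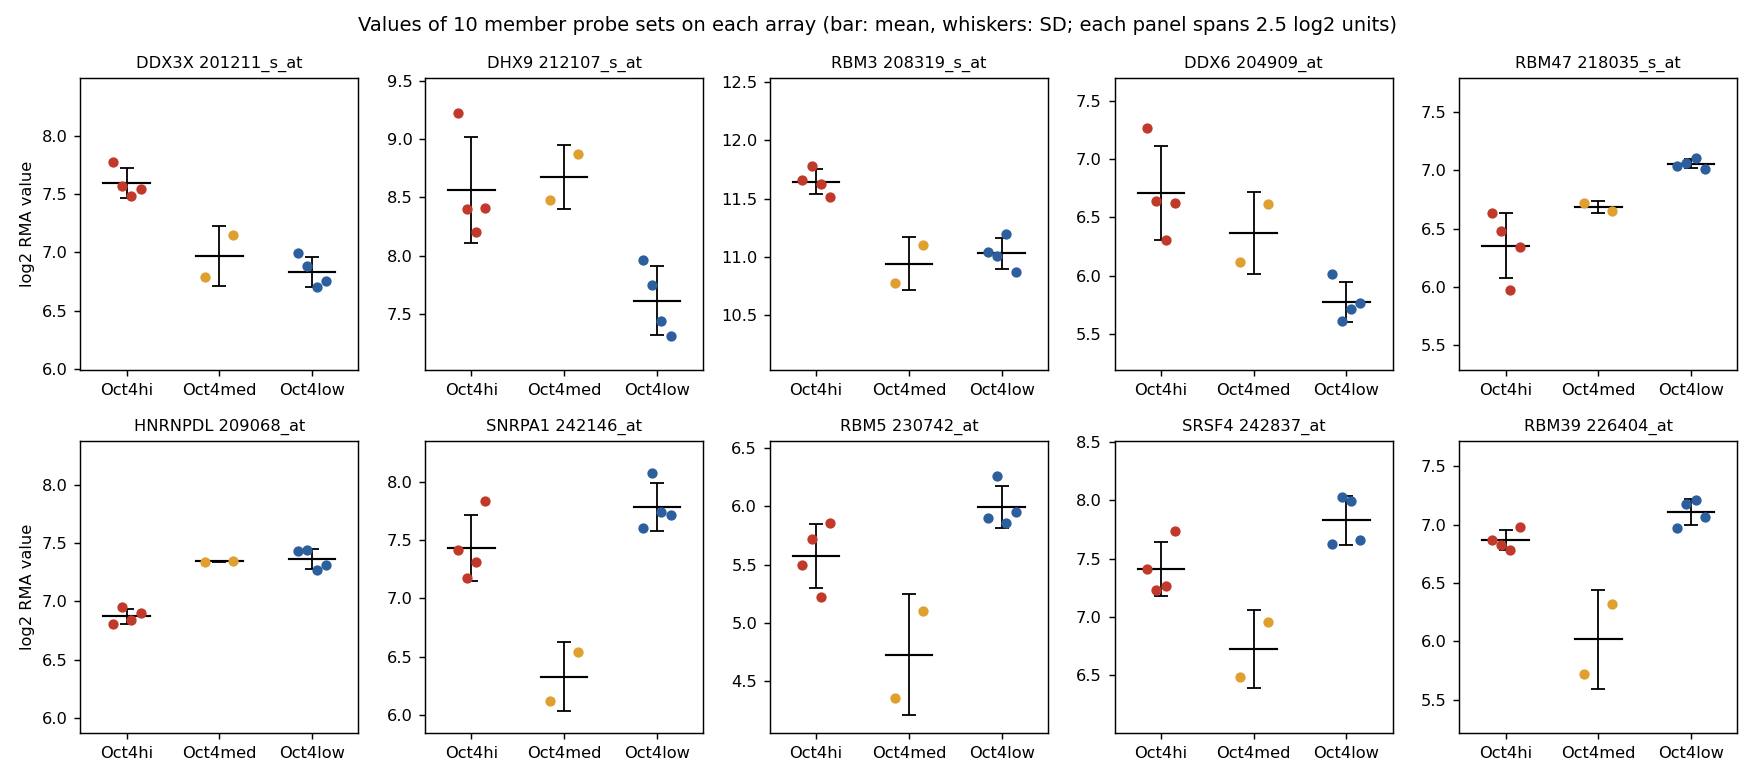
Log2 RMA value on each array (points) of 10 member probe sets in Oct4hi (4 arrays), Oct4med (2) and Oct4low (4) cells, with the mean (bar) and SD (whiskers); y axes differ in level and share one span. DDX3X and RBM3 stand high only in Oct4hi, DHX9 in Oct4hi and Oct4med, and SNRPA1, RBM5, SRSF4 and RBM39 stand low in Oct4med.

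Set across all 3 subsets, 71 member probe sets of 46 genes passed in at least 1 comparison (38.0% of members, 24.5% of all probe sets) and 116 passed in none. A dip in the middle subset, lower in Oct4med than in Oct4low and higher in Oct4hi than in Oct4med cells, was met by 11 probe sets of 7 genes (5.88% of members, 3.05% of all probe sets), all named above apart from DDX50, a nucleolar helicase (-0.79 in Oct4med against Oct4low, adjusted p = 0.00085, and 0.57 in Oct4hi against Oct4med, adjusted p = 0.0107). A further pattern, higher in Oct4hi than in both others, was met by 13 probe sets of 8 genes (6.95% of members, 3.27% of all), among them DDX3X, RBM3, RBMS2, CPSF2 and DDX60. Against Oct4med, both CPSF2 calls were lost after a second quantile normalization. Without Oct4med replicate 1 they were lost too, as were those of RBM3 on 208319_s_at, RBMS2 on 235439_at and DDX60. Lower values than in Oct4low cells in both other subsets were found on 9 probe sets of 9 genes (4.81% of members, 3.56% of all), with HNRNPD, HNRNPA2B1, CPSF6, RBM6 and SF3B6 among them. The Oct4med calls of RBM6 and HNRNPA2B1 were lost without either Oct4med array and also without 5 and 2 of the other arrays. These comparisons share arrays with each other, so the counts are not independent.

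The start regions of the genes that moved most are shown for their letters. They were taken from RefSeq on GRCh38.p14 and run from 250 bases before to 50 bases after an annotated start, 5′ to 3′ on the gene's strand. The first 4 are the genes with the largest falls in Oct4med against Oct4low cells among those with an entry, and the last had the largest rise in Oct4hi against Oct4low cells. Capitals mark the ETS core, CCGGAAG or its reverse complement, the letters read by ETS transcription factors.
SNRPA1, chr15:101295199-101295498, minus strand: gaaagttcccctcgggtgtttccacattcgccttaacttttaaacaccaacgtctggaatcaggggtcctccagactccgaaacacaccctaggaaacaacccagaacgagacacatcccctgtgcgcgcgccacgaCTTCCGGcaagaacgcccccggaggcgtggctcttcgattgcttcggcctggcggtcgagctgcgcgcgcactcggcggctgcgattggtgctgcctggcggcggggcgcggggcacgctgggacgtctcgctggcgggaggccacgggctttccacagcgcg
RBM5, chr3:50088669-50088968, plus strand: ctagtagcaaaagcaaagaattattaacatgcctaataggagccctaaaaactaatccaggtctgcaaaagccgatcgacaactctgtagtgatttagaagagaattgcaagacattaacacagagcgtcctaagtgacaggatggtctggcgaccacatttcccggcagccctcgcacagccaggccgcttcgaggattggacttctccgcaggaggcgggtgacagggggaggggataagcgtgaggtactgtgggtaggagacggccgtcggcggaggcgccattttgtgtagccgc
SRSF4, chr1:29181851-29182150, minus strand: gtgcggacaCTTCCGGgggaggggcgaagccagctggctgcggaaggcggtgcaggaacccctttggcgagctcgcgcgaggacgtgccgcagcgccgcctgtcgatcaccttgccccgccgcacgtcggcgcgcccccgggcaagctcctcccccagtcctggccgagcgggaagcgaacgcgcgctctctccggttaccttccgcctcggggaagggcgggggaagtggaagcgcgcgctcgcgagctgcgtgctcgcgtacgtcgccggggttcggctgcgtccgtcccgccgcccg
PRPF38B, chr1:108692060-108692359, plus strand: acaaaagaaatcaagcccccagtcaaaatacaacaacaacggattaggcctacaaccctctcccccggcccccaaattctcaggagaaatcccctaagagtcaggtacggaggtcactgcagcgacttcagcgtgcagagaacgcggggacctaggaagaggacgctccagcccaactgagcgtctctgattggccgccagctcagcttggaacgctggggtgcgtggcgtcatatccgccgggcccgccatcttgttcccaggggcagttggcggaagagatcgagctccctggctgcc
DHX9, chr1:182839097-182839396, plus strand: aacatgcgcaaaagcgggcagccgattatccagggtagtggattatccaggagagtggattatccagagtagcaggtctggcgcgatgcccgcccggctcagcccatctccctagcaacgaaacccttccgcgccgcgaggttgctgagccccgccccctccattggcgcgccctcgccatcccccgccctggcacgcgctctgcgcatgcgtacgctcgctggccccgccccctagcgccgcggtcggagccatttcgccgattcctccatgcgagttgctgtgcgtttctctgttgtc

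SNRPA1 and SRSF4 carried the ETS core once each, on the reverse strand, and RBM5, PRPF38B and DHX9 did not. Of 95 member genes, 85 had an entry, and a gene with several starts was counted once. The ETS core, on either strand, stood in 27 of them (31.8%) and in 12.2% of all 27305 genes. It stood in 8 of the 18 member genes with an entry that were lower in Oct4med than in Oct4low cells (44.4%), which were DDX50, HNRNPD, RBM8A, SF3B6, SNRPA1, SNRPB2, SRSF4 and SRSF5, and in 3 of the 16 that were higher in Oct4hi than in Oct4low cells (18.8%), which were DDX19A, PRPF6 and RBM3. The octamer ATGCAAAT, the letters that Oct4 and its relatives bind, stood in 0 of the 85 and in 2.19% of all genes. TATAAA was present in 10.6% of member genes and 14.0% of all. These are matches of letters and not measured binding.

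Probe sets of the same gene often changed unequally. The brightest probe set of each of the 52 genes was set against each dimmer one, which gave 92 pairs, and the per-array difference was tested by limma over all 6600 such pairs of the table. Unequal change between Oct4hi and Oct4low cells was called for 21 pairs of 15 genes, 22.8% of member pairs against 12.1% of all pairs. For Oct4med against Oct4low it was called for 14 pairs, 15.2% against 6.77%, and for Oct4hi against Oct4med for 10 pairs, 10.9% against 5.53%. Where the dimmer probe set was also bright, 16 of 62 member pairs were called between Oct4hi and Oct4low cells (25.8%, against 14.6% of all such pairs). The count for Oct4hi against Oct4low was 7 without Oct4low replicate 2, 8 without Oct4low replicate 4, 9 without Oct4hi replicate 1, 10 without Oct4hi replicate 2 and 13 without Oct4low replicate 3. For Oct4med against Oct4low it was 3 without Oct4med replicate 1 and 8 without Oct4med replicate 2. Signals near background compress changes, and no detection calls were used, so only the inequality is read.

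In Oct4hi against Oct4low cells the widest gap was at DDX6. Its brightest probe set, 1562836_at, read 8.41, 8.48, 8.32 and 8.43 in Oct4hi, 7.98 and 8.32 in Oct4med, and 8.39, 8.46, 8.50 and 8.55 in Oct4low cells, a change of -0.06 between Oct4hi and Oct4low, where 204909_at gave 0.93. The difference between the changes of the 2 probe sets was -0.995 (SE 0.17, adjusted p = 0.0022) for Oct4hi and -0.92 (SE 0.21, adjusted p = 0.0136) for Oct4med, each against Oct4low.

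RBM26, a zinc-finger protein that links polyadenylated nuclear RNA to the exosome, was the 1 gene with a call each way in Oct4hi against Oct4low cells. On 222626_at the arrays read 7.07, 6.71, 6.39 and 6.60 in Oct4hi, 6.44 and 7.02 in Oct4med, and 6.35, 6.19, 6.03 and 6.0 in Oct4low cells (0.55, SE 0.14, adjusted p = 0.0152). On 226316_at they read 7.34, 7.39, 6.82 and 7.56 in Oct4hi, 7.61 and 7.90 in Oct4med, and 7.87, 7.88, 7.93 and 7.76 in Oct4low cells (-0.58, SE 0.13, adjusted p = 0.00607). The Oct4hi arrays thus lay above all Oct4low arrays on one probe set and below them on the other, and the 3 other probe sets changed by -0.09, -0.02 and 0.17 with no call. Both called probe sets differed from the brightest, 218422_s_at, in their change (adjusted p = 0.0133 and 0.015).

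**Figure D3:**
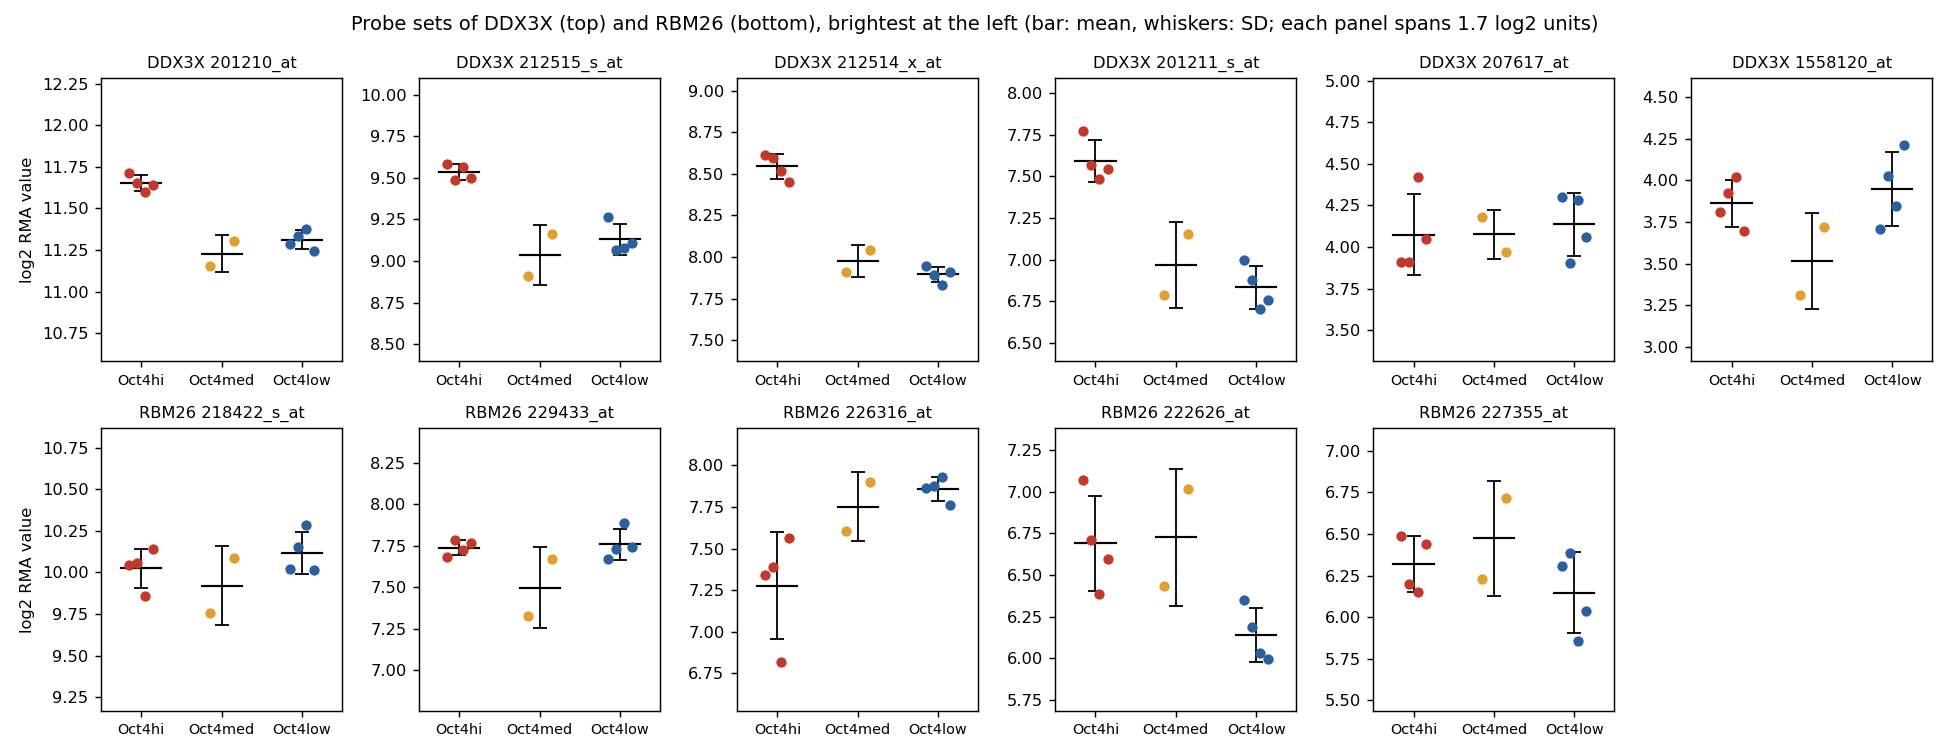
Log2 RMA value on each array (points) for the 6 probe sets of DDX3X and the 5 of RBM26, brightest at the left, in Oct4hi, Oct4med and Oct4low cells, with the mean (bar) and SD (whiskers); each panel has its own level and the same span. The 4 brighter DDX3X probe sets stand high in Oct4hi while the 2 dim ones overlap, and RBM26 226316_at and 222626_at move in opposite directions.

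Other genes had probe sets with unequal changes, in part beside dim ones near the floor of the signal. HNRNPDL fell on 209068_at in Oct4hi against Oct4low cells, whereas its brightest probe set changed by 0.22 (difference of changes 0.71, SE 0.13, adjusted p = 0.00349). RBM47 fell on 218035_s_at, while its dim probe sets 229421_s_at and 229440_at changed by 0.07 and -0.12 (differences of changes -0.77 and -0.58, adjusted p = 0.0261 and 0.0336). Its other bright probe set, 222496_s_at, changed by -0.33, which did not differ past the threshold (difference -0.37, adjusted p = 0.188). HNRNPD fell on 213359_at, while the dim 227744_s_at changed by 0.05 (difference -0.59, SE 0.13, adjusted p = 0.00941). RBM15, which brings the m6A writer to RNA, fell by 0.39 on a dim probe set and changed by 0.19 on its brightest (difference 0.59, SE 0.17, adjusted p = 0.0399).

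RBM25 was higher in Oct4hi than in Oct4low cells on its brightest probe set, 212027_at (0.42, SE 0.10, adjusted p = 0.0106), which read 10.15, 9.94, 9.93 and 10.13 in Oct4hi, 9.37 and 9.82 in Oct4med, and 9.57, 9.61, 9.72 and 9.55 in Oct4low cells. In Oct4med against Oct4low cells that probe set changed by -0.02 while 1557081_at fell by 0.91 (difference of changes 0.89, SE 0.17, adjusted p = 0.00478). RBM5 fell by 1.26 on 230742_at in the same comparison, where the dim 209936_at changed by -0.19 (difference of changes -1.07, SE 0.19, adjusted p = 0.00295). SRSF1 fell by 0.64 on 226419_s_at and changed by 0.26 on the dim 201741_x_at and by 0.22 on the bright 201742_x_at (differences -0.89 and -0.85, adjusted p = 0.00882 and 0.0201).

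RBM33, with 6 probe sets, was the 1 gene called both ways between Oct4hi and Oct4med cells. It was higher in Oct4hi on 1554095_at (0.56, SE 0.12, adjusted p = 0.00702) and lower on 225839_at (-0.46, SE 0.11, adjusted p = 0.0157), and the 2 changes differed by 1.01 (SE 0.16, adjusted p = 0.00233). The second probe set read 6.31 to 6.46 in Oct4hi and 6.72 and 6.98 in Oct4med cells. Against Oct4low cells, 231833_at was lower in Oct4med (-0.47, adjusted p = 0.0362).

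**Figure D4:**
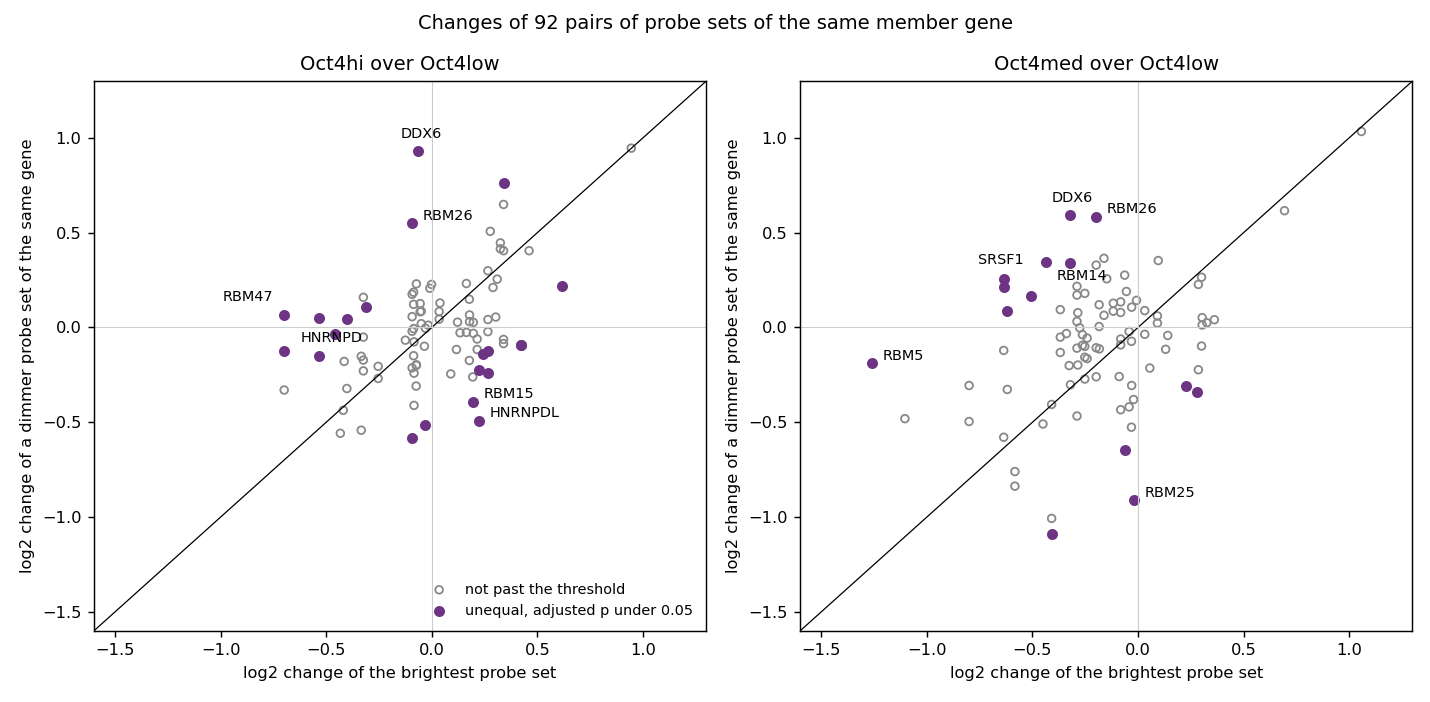
Log2 change of a dimmer probe set (y axis) against that of the brightest probe set of the same gene (x axis) for the 92 member pairs, in Oct4hi over Oct4low (left) and Oct4med over Oct4low (right), with equal change on the diagonal and filled points where the changes differed past an adjusted p of 0.05. There are 21 filled points at the left and 14 at the right; genes with the widest gaps are named.

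Called rises and falls also came from different kinds of probe set. Of the 23 rises in Oct4hi against Oct4low cells, 13 were on probe sets ending in _x_at or _s_at, whose probes match more than 1 transcript or sequence, which was 56.5% beside 34.2% of all members. Over all probe sets it was 43.7% of rises beside 25.2% of those tested. Among the 19 falls 1 was of that kind (5.26%), beside 20.5% of the falls over all probe sets. All 23 rises were on bright probe sets, and 5 of the 19 falls were on dim ones. Without probe sets of these endings there were 9 rises of members in that comparison (7.32% of members, 6.13% of all probe sets). There were 18 falls (14.6% of members, 8.89% of all), and of the calls over all probe sets 40.8% were then rises, beside 49.7% with every probe set kept. The position of a probe set along its transcript, exon or intron, was not analysed here.

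Splicing genes with other names were followed on lists of their own. As background for the counts, 7.36% of all probe sets were lower and 1.80% higher in Oct4med than in Oct4low cells. In Oct4hi cells 8.70% of all were higher and 8.80% lower than in Oct4low cells. Of 71 probe sets of splicing regulators of other families, 12 were lower and 3 higher in Oct4med than in Oct4low cells, with SFPQ, a paraspeckle protein, at 7.64, 7.52, 7.52 and 7.88 in Oct4hi, 6.62 and 6.94 in Oct4med, and 7.99, 8.27, 8.20 and 7.95 in Oct4low cells (-1.32, SE 0.14, adjusted p = 1.26e-05), and TRA2A, an SR-like activator, lower by 1.45 (SE 0.17, adjusted p = 3.15e-05). Of 13 probe sets of SNRNP and U2AF proteins 5 were lower and 0 higher, with U2SURP at -1.34 (adjusted p = 0.0144) and SF1, the branch-point binding protein, at -1.01 (adjusted p = 0.0209). SF1 read 5.88 and 6.92 on the Oct4med arrays and 7.20 to 7.62 in Oct4low cells. The calls of U2SURP and SF1 were both lost without Oct4med replicate 1. Of 6 splicing kinase probe sets 1 was lower in Oct4med than in Oct4low cells, on CLK1 (-0.59, adjusted p = 0.0088), and 1 was lower in Oct4hi cells, on CLK4 (-0.46, adjusted p = 0.00437). Among 7 late spliceosome probe sets 2 were higher in Oct4hi than in Oct4low cells, on CDC40 (0.56, adjusted p = 0.00153) and CDC5L (0.46, adjusted p = 0.018). Of 23 probe sets of cleavage and polyadenylation factors, 3 were higher and 6 lower in Oct4hi cells, with the poly(A) polymerase PAPOLA at 0.84 (adjusted p = 0.018) and RBBP6 at -0.33 (adjusted p = 0.0127). The 9 LSM probe sets gave 2 rises in Oct4hi cells, both on LSM11 (0.44 on 226819_at, adjusted p = 0.0433, a call lost without any 1 of 8 arrays, all but Oct4hi replicates 2 and 4), and the 3 exon junction and decay probe sets gave 1 rise, MAGOHB (0.36, adjusted p = 0.0215), and 1 fall, UPF2 (-0.41, adjusted p = 0.00413).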

How the data were processed

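The deposited table holds log2 values, which the authors made from background-corrected intensities with RMA, and from which they left out features near background or with little change. Values were used as deposited. In R 4.3.3 with limma 3.58.1, linear models with 1 coefficient per subset covered all 10 arrays, with moderated two-sided tests and Benjamini-Hochberg adjustment over 25727 non-control probe sets (threshold 0.05) or 6600 pairs of probe sets. Gene symbols came from the platform annotation, in which 18682 probe sets had 1 symbol, 799 several and 6246 none here. Precision was limited by the number of arrays. Tests were checked on simulated data. The members and lists were chosen with earlier results of these data known. Text names the largest non-overlapping calls per comparison, up to 3 genes per role list, the widest pairs, the 4 genes with the most probe sets and up to 2 genes per other list; DDX50, DDX19A, RBMS2, HNRNPA1, HNRNPM, SRSF7 and others outside it were named after their values were seen. Alternatives covered filters, scaling, array weights, the variance prior, other tests, a replicate block and each array left out.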

Additional observations from a re-analysis of the deposited data

Results flagged for a closer look

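Of 154 sets of 4 arrays examined (77 named probe sets in Oct4hi and in Oct4low cells), 4 held an array that stood apart from the other 3 by a gap above the critical share of the range, where chance gives about 1 in 20. HNRNPH1 on 213472_at read 4.89 in Oct4low replicate 4, against 5.51 to 5.54 on the other Oct4low arrays. HNRNPDL on 1554678_s_at read 10.26 in Oct4low replicate 3, against 9.92 to 9.96. DDX52 on 1570415_at read 3.97 in Oct4low replicate 1, against 4.14 to 4.15, and DHX35 on 234728_s_at read 3.87 in Oct4hi replicate 1, against 3.69 to 3.71, both on dim probe sets.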

How the results depend on the processing

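The counts of calls, and the 101 calls named by the rule above, were recomputed under other filters, scalings, tests and array sets. None of these 101 calls reversed. Calls named outside the rule, such as those of HNRNPA1, HNRNPM, DDX50, DDX19A and SRSF7, were not recomputed singly. Unequal pairs were recomputed as counts only, so no single pair was checked in this way. Of 101 named calls, 26 held under every setting run and 47 with each array left out. In Oct4hi against Oct4low cells the calls of CPSF2 on 225994_at, SRSF4, SRSF11, SF3B6, HNRNPU, RBM15 and CDC5L were lost without any 1 of 4 to 6 arrays, and in Oct4med against Oct4low cells so were those of SNRPB2, RBM33 on 231833_at and DHX9 on 212105_s_at. Calls in Oct4hi against Oct4med cells of CPSF2 on 233208_x_at, DDX20, RBM8A and MAGOHB were lost without any 1 of 4 to 8 arrays. Higher calls for Oct4med against Oct4low numbered 9 with a filter at the array median and 9 at the 75th percentile (4 in the report). After a second quantile normalization they were 10, and Oct4hi against Oct4med had 18 higher and 7 lower. Array quality weights left 2 higher for Oct4med against Oct4low.

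Without _x_at and _s_at probe sets, Oct4hi against Oct4low had 27 calls (9 higher), Oct4med against Oct4low 1 higher, and Oct4hi against Oct4med 21 (17 higher), with 13 unequal pairs for Oct4hi and 8 for Oct4med against Oct4low. Fitting the subsets compared alone gave 7 higher for Oct4med against Oct4low and 23 calls (20 higher) for Oct4hi against Oct4med. A two-sample t-test with pooled variance, without the random variance model that the paper's methods name, was also run. It gave 27 calls (9 lower) for Oct4hi against Oct4low and 7 (0 higher, 7 lower) for Oct4med against Oct4low. For Oct4hi against Oct4med it gave 12 (9 higher). With the brightest probe set per gene, lower calls were 12, 19 and 2 in these comparisons, with fewer probe sets tested. At an unadjusted p under 0.001 there were 25 (14 higher, 11 lower), 2 higher, and 20 (17 higher). The cause of these shifts was not tested.

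Deviations of same-numbered arrays from their subset means had correlations from -0.177 to 0.167, and those of differently numbered arrays from -0.389 to 0.389. Deviations from a mean of 2 or 4 arrays are tied to each other. These values therefore cannot decide whether same-numbered arrays came from 1 experiment. With the replicate block, Oct4med against Oct4low had 1 higher call and 6 unequal pairs, and Oct4hi against Oct4med had 19 calls (18 higher, 1 lower).

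Leaving out each array in turn, calls ranged from 30 to 49 for Oct4hi against Oct4low (16 to 25 higher, 13 to 28 lower), from 18 to 36 for Oct4med against Oct4low (1 to 7 higher, 13 to 30 lower) and from 5 to 35 for Oct4hi against Oct4med (4 to 32 higher, 1 to 4 lower). Unequal pairs ranged from 7 to 20 and from 3 to 15. With 1 Oct4med array left, its spread was taken to match the other subsets. The 2 Oct4med arrays and the 44 dim member probe sets limit what these arrays can show.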
